A study of Mus musculus with 32 samples.

Results

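Receptors for serotonin, for noradrenaline and adrenaline, for histamine and for acetylcholine were followed across the striatum of 4 mouse genotypes. The members were the 48 protein-coding genes of the count table whose GENCODE M21 symbol names such a receptor or receptor subunit, out of 54532 genes in the table, 21995 of them protein-coding. They were 14 serotonin receptors (Htr), 9 adrenergic receptors (Adra and Adrb), 4 histamine receptors (Hrh), 5 muscarinic acetylcholine receptors (Chrm) and 16 subunits of nicotinic acetylcholine receptors (Chrn). The rule used gene names and no measured value, though the members were chosen with earlier results of these data known.

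RNA of the striatum was sequenced from 32 animals aged 6 months, with 8 per genotype, bred as littermates on a C57BL/6J background. WT mice carried 2 normal copies of Htt and of Msh3. Msh3-/- mice lacked both copies of Msh3, a DNA mismatch repair gene in which exons 3 to 8 had been removed by CRISPR editing. Mice labelled zQ175 were heterozygous for a knock-in allele of the mouse Htt gene with an expanded CAG repeat, a model of Huntington's disease, and zQ175:Msh3-/- mice carried that allele and lacked Msh3. Each group held 4 males and 4 females except zQ175:Msh3-/-, with 5 males and 3 females. Both alleles were germline alleles present in every cell of the striatum, so no result can be assigned to a cell type by the alleles. The design asks what the zQ175 allele does to these receptors with Msh3 present and with Msh3 absent, and what the loss of Msh3 does with and without the zQ175 allele.

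The libraries held between 12359347 and 25030335 counts over genes. Msh3, the targeted gene, was at 22.9 to 27.5 CPM (counts per 1000000 counts) in WT mice and at 10.4 to 13.6 CPM in Msh3-/- mice. That value sums reads over the whole gene, exons outside the deletion included, and it separated the genotypes without overlap. The defining markers of striatal projection neurons were present in every group, save Gpr52, which was not found in the count table. The summed markers of the choroid plexus, a neighbouring tissue, ranged from 33.8 to 2999 CPM between mice. In 8 of the 32 mice that sum was above 300 CPM.

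These transmitters act on G protein-coupled receptors and on ion channels. Most of the members are receptors coupled to G proteins: the Gi-coupled type lowers cyclic AMP and dampens release or firing, the Gs-coupled type raises cyclic AMP, and the Gq-coupled type acts through phospholipase C. The nicotinic receptors and the 5-HT3 receptor are instead ion channels opened by their transmitter. In the striatum, spiny projection neurons receive acetylcholine from local cholinergic interneurons, and serotonin, noradrenaline and histamine from fibres that arrive from the brainstem and hypothalamus.

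Mean levels in WT striatum ranged from 0.325 TPM for Chrnb4 to 140 TPM for Hrh3 among the members that passed a filter on low counts. TPM values (transcript abundances that add up to 1000000 per library) divide by gene length and were used for every comparison of levels between genes. In WT mice Hrh3, the Gi-coupled H3 receptor, had the highest level (140 ± 12.4 TPM, SD, n = 8), and no mouse overlapped the next member. The M4 muscarinic receptor gene Chrm4 (83.4 ± 10.8 TPM) and the M1 receptor gene Chrm1 (83.1 ± 6.63 TPM) came next with ranges that overlapped. They were followed by Adra2c (60.7 ± 3.84 TPM), an α2-adrenergic receptor, whose highest mouse reached the lowest value of Chrm4 but not that of Chrm1. Below Adra2c, without overlap, came the serotonin 1B receptor gene Htr1b (36.4 ± 5.11 TPM). The serotonin 2C receptor gene Htr2c (28.9 ± 4.94 TPM) overlapped Htr1b above it and the nicotinic β2 subunit gene Chrnb2 (22.1 ± 0.853 TPM) below it. From the β1-adrenergic receptor gene Adrb1 (17.3 ± 1.80 TPM) downward, every member overlapped its neighbour in the order. In all, 30 members averaged at least 1 TPM and 11 at least 10 TPM. The annotation lists Chrm4 and Chrm5 as single exons of 1440 and 1599 bases, which lie within their coding parts, so their TPM values depend on that short length.

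**Figure D1:**
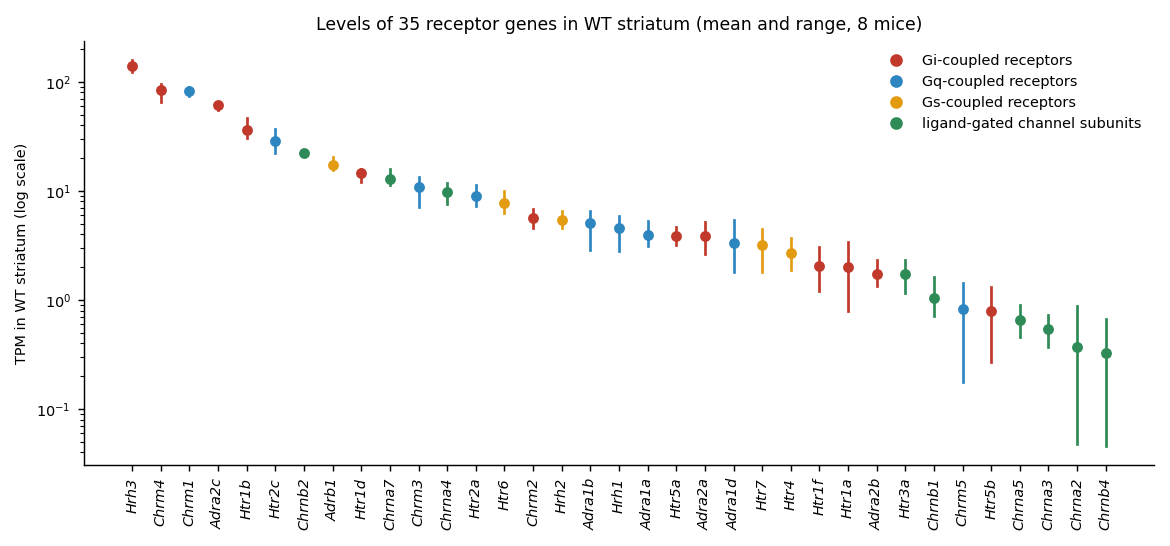
Level of 35 of the 36 receptor genes that passed the filter on low counts, in TPM on a log axis, in the striatum of the 8 WT mice. Points are means and lines run from the lowest to the highest mouse, with colour for the kind of signalling. Hrh3 stood at 140 TPM, and 4 of the 5 members with the highest level were Gi-coupled.

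Of the 48 members, 36 had enough counts to be tested and 12 did not. Those 12 were Htr2b, Htr3b, Adrb3, Hrh4, Chrna1, Chrna6, Chrna9, Chrna10, Chrnb3, Chrnd, Chrne and Chrng. Several are known from other tissues: Chrna1, Chrnd, Chrne and Chrng encode subunits of the muscle receptor, and Adrb3 is known from fat. Adrb3 had 2 to 13 counts per mouse and the other 11 had between 0 and 15. Chrnd had 0 counts in all 32 mice, which allows a level of up to 0.00552 CPM, counting error only. Hrh4 and Chrna9 had 1 count each over all mice.

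A member was called changed when its edgeR adjusted p was below 0.05 and its fold change at least 1.2. In zQ175 against WT, 8 members fell and 2 rose, while 6.89% of the 16610 genes tested fell and 4.7% rose, 11.6% in all. Comparing zQ175:Msh3-/- with Msh3-/-, 7 members fell and 2 rose, against 5.96% and 4.68% of all genes, 10.6% together. These comparisons share no mouse. The same 8 members were called in the same direction in both: Chrm4, Hrh3, Adra2c, Adra2b, Htr1b, Htr4 and Chrna7 fell, and Htr2c rose. How many of all genes were called in the same direction in both was not counted, so this number has no background beside it. Over the 36 tested members the median log2 fold change was −0.08 in zQ175 against WT, beside 0.01 over all genes tested, and −0.03 in the Msh3-null pair, also beside 0.01. The 8 mice with the allele lay wholly below the 8 without it for 6 members and wholly above for 2 in zQ175 against WT, where 6.63% of all genes had groups apart in either direction. In the Msh3-null pair this held for 5 members below and 1 above, beside 5.39% of all genes. In this bulk tissue fewer cells of a type and less RNA per cell cannot be told apart. Taking both pairs in a single contrast, with 32 mice, 9 members fell and 3 rose, where 7.38% of all genes fell and 6.32% rose, 13.7% in all. The 9 include Chrm5, whose few reads may have passed the filter mainly in mice without the allele. In zQ175:Msh3-/- against WT, which reuses mice of both pairs, 7 members fell and 2 rose beside 12% of all genes called in either direction.

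**Figure D2:**
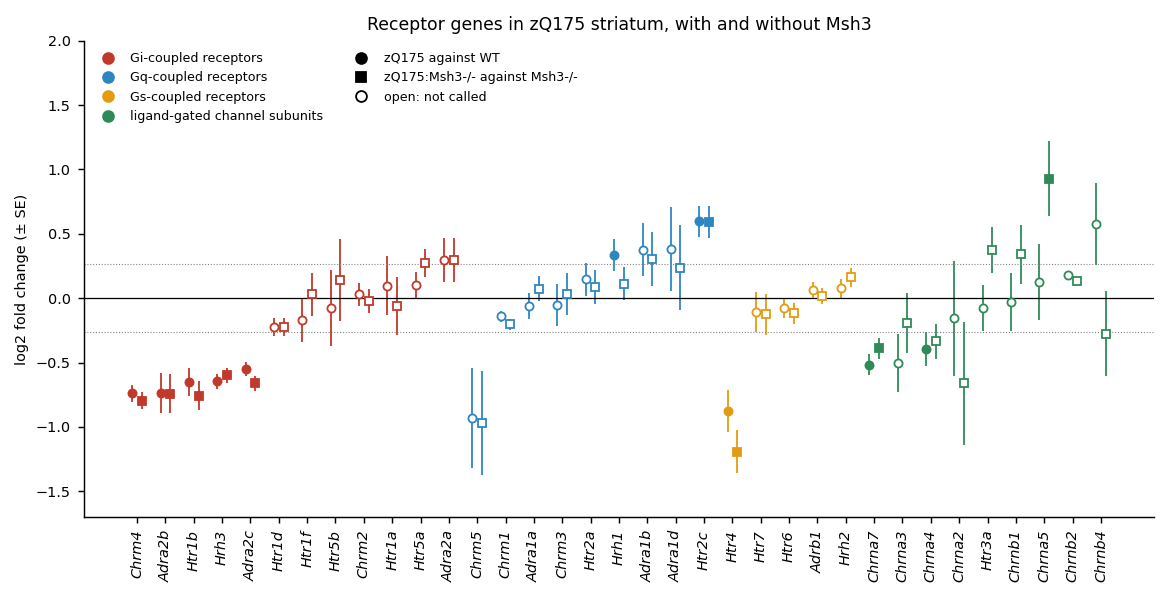
Log2 fold change with its standard error for 35 of the 36 tested receptor genes, grouped by signalling and ordered by the value in zQ175 against WT. Circles are zQ175 against WT, squares zQ175:Msh3-/- against Msh3-/-, filled symbols were called, and dotted lines mark a 1.2-fold change. Of the members called in both comparisons, Chrm4, Adra2b, Htr1b, Hrh3, Adra2c, Htr4 and Chrna7 lie below the lower line in both, and Htr2c lies above the upper line in both.

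The Gi-coupled receptors held most of the members that fell. In each pair 5 of the 12 tested Gi-coupled members fell and the other 7 were not called. The 5 were Chrm4, Hrh3, Adra2c, Adra2b and Htr1b both times, and 4 of them were among the 5 members with the highest level in WT striatum. Among the 24 tested members that are not Gi-coupled, 3 fell and 2 rose in zQ175 against WT, and 2 fell and 2 rose in zQ175:Msh3-/- against Msh3-/-. No test was made between these groups of members.

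Chrm4 encodes the M4 receptor, through which acetylcholine dampens cyclic AMP signalling, above all in spiny neurons of the direct pathway. Its lowest, median and highest values were 40.5, 51.7 and 60.1 CPM in WT mice and 27.5, 32.04 and 33.9 CPM in zQ175 mice. With Msh3 absent they were 51.1, 58.1 and 63.6 CPM in Msh3-/- mice and 30.0, 33.2 and 39.5 CPM in zQ175:Msh3-/- mice. Every mouse with the zQ175 allele lay below every mouse without it. The log2 fold change was −0.74 ± 0.07 (SE, edgeR adjusted p = 1.03e-10) in zQ175 against WT and −0.80 ± 0.07 (adjusted p = 2.36e-11) in zQ175:Msh3-/- against Msh3-/-. Exact permutation of the 8 and 8 mice gave p = 0.000155 in each pair, two-sided and unadjusted, the smallest value this design allows. That p only restates the lack of overlap, which held for 6.63% and 5.39% of all genes in these pairs. Chrm4 was described with its call known.

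Hrh3 encodes the histamine H3 receptor, a brake on transmitter release from nerve endings that is also found on spiny neurons. It stood at 133, 141 and 163 CPM (lowest, median, highest) in WT mice and at 84.7, 91.4 and 101 CPM in zQ175 mice. Msh3-/- mice had 138, 154 and 176 CPM, and zQ175:Msh3-/- mice 81.5, 105 and 118 CPM. The mice with the allele were again all below the mice without it. The log2 fold change of Hrh3 was −0.64 ± 0.06 (edgeR adjusted p = 1.19e-10) with Msh3 present and −0.60 ± 0.06 (adjusted p = 9.08e-10) with Msh3 absent.

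Adra2c encodes the α2C-adrenergic receptor, an α2 receptor known for its striatal level. WT mice had 81.9, 90.7 and 97.9 CPM and zQ175 mice 52.2, 61.6 and 67.6 CPM. Of the Msh3-null groups, Msh3-/- had 83.7, 99.1 and 111 CPM and zQ175:Msh3-/- 56.5, 59.7 and 69.4 CPM. No mouse crossed between the groups with and without the allele. The log2 fold changes were −0.55 ± 0.06 (edgeR adjusted p = 2.29e-09) and −0.66 ± 0.06 (adjusted p = 4.89e-11) in the 2 pairs.

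Htr1b encodes the serotonin 1B receptor, which sits on the axon endings of spiny neurons and of serotonin fibres. It measured 60.5, 74.6 and 94.2 CPM in WT mice against 38.7, 46.5 and 58.8 CPM in zQ175 mice. Msh3-/- mice had 60.7, 76.0 and 101 CPM and zQ175:Msh3-/- mice 36.2, 46.8 and 55.9 CPM. The groups were apart in both pairs, narrowly so between WT and zQ175. The changes were −0.65 ± 0.11 (edgeR adjusted p = 3.04e-05) and −0.76 ± 0.11 (adjusted p = 4.68e-06). In females alone the second change was −0.49 (adjusted p = 0.0670) and was not called. An antisense gene, D430036J16Rik, shares 852 exon bases with Htr1b and itself changed by −0.67 in zQ175 against WT. It averaged 118 counts beside 1029 for Htr1b. Whether reads were counted by strand is not given in the sources used here, so reads of this pair of genes cannot be told apart.

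Adra2b encodes the α2B-adrenergic receptor, a member of low striatal level. WT mice had 2.35, 2.88 and 4.00 CPM and zQ175 mice 1.18, 1.83 and 2.27 CPM, without overlap. The values were 2.53, 3.13 and 4.69 CPM in Msh3-/- mice and 1.503, 1.85 and 2.83 CPM in zQ175:Msh3-/- mice, where the ranges overlapped. The changes were −0.74 ± 0.15 (edgeR adjusted p = 0.000326) and −0.74 ± 0.15 (adjusted p = 0.000307). In females alone neither was called, with −0.51 (adjusted p = 0.161) in the first pair and −0.79 (adjusted p = 0.0519) in the second.

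Adra2a, the α2A-adrenergic autoreceptor gene, did not share the direction of Adra2b and Adra2c. It was at 4.34, 6.40 and 8.54 CPM in WT mice and at 4.49, 8.26 and 9.68 CPM in zQ175 mice. With Msh3 absent it was at 3.50, 7.33 and 9.36 CPM without the allele and 6.18, 8.65 and 12.6 CPM with it. The ranges overlapped in both pairs. Its log2 fold change was 0.30 ± 0.17 and 0.30 ± 0.17 in the 2 pairs (edgeR adjusted p = 0.212 and 0.222). It was called in the contrast over both pairs (0.30 ± 0.12, adjusted p = 0.0494) and in zQ175:Msh3-/- against WT (0.47 ± 0.17, adjusted p = 0.0390). The call over both pairs was lost in 22 of the 32 fits that left out a mouse (0.24 to 0.34).

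The remaining Gi-coupled members were not called in any comparison. Htr1d, a serotonin autoreceptor gene at 14.5 TPM in WT mice, changed by −0.22 ± 0.07 and −0.22 ± 0.07 in the 2 pairs (edgeR adjusted p = 0.0111 and 0.0124), under the 1.2-fold limit. Chrm2, the M2 autoreceptor gene of cholinergic interneurons (5.63 TPM), differed by 0.03 and −0.02. Among the other serotonin receptor genes the values were 0.10 and −0.06 for Htr1a (2.02 TPM), −0.17 and 0.03 for Htr1f (2.07 TPM), 0.10 and 0.28 for Htr5a (3.90 TPM), and −0.08 and 0.14 for Htr5b (0.787 TPM).

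**Figure D3:**
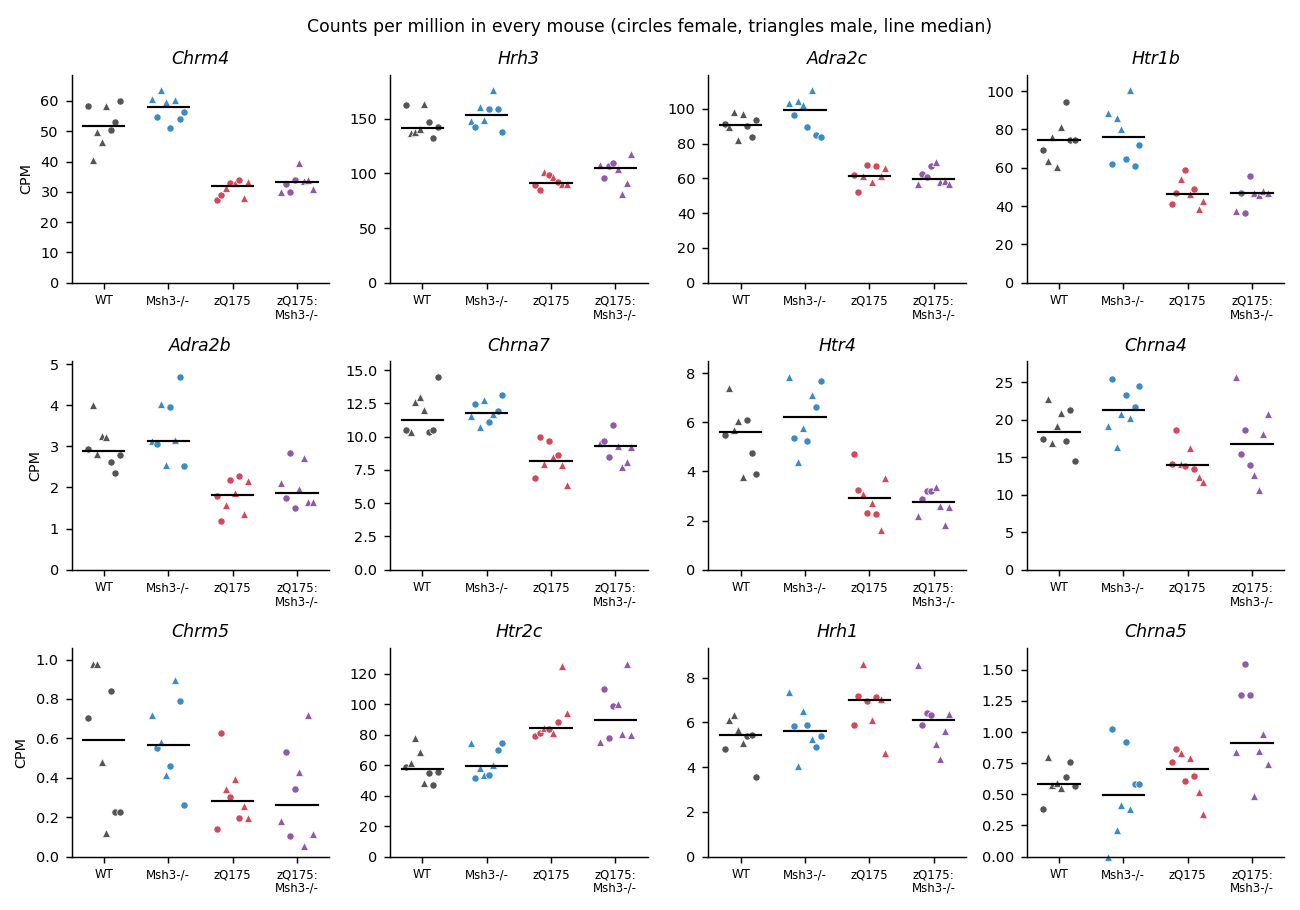
CPM in every mouse for the 12 receptor genes called in at least 1 of the 2 pairs or, for Chrm5, in the contrast over both pairs. Adra2a, called as higher in that contrast and in zQ175:Msh3-/- against WT, is not drawn. Columns are the 4 genotypes, circles are females, triangles males and lines medians, with each vertical axis starting at 0. In Chrm4, Hrh3, Adra2c, Htr1b and Htr2c the mice with and without the zQ175 allele do not overlap within either pair, while in Chrm5, Hrh1, Chrna4 and Chrna5 they overlap in both.

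Promoter sequences are shown for the 2 Gi-coupled members with the highest levels, both of which fell, and for Htr2c, which rose. They are RefSeq promoters on GRCm38.p6, 250 bases before to 50 after the start of transcription, and 35 of the 48 members had an entry. Capitals mark GC boxes (GGGCGG) and CCAAT boxes (CCAAT), searched on both strands, so that a match on the other strand appears as its reverse complement.
Chrm4 (chr2:91921939-91922238, plus strand): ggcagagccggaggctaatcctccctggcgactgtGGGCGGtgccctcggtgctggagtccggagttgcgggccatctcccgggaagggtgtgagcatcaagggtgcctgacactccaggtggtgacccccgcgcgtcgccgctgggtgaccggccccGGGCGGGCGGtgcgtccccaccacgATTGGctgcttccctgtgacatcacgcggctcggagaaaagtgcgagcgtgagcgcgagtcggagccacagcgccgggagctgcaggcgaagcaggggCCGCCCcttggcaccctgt
Hrh3 (chr2:180104358-180104657, minus strand): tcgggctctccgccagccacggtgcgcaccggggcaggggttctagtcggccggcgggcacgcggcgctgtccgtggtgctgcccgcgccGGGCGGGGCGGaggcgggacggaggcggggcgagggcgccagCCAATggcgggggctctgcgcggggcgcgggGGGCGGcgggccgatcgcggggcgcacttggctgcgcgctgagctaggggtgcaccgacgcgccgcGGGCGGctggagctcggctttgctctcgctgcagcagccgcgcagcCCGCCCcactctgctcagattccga
Htr2c (chrX:146962263-146962562, plus strand): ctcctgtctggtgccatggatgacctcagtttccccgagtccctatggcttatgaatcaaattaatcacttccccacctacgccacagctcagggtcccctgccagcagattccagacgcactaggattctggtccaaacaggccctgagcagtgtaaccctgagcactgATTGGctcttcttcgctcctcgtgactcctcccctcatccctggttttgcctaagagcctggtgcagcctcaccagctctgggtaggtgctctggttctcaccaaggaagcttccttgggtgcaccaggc

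The Chrm4 promoter held 4 matches to the GC box and that of Hrh3 held 5, while that of Htr2c held 0. The promoter of Adra2c, another Gi-coupled member that fell in both pairs, is not printed and also held 0. Each of these promoters held 1 CCAAT match. Among the 32851 promoters of the same length in the table, 35.7% held a GC box and 37.4% a CCAAT box. Of the 43 promoters of members, 23 held a GC box and 10 a CCAAT box. The Chrm4 and Hrh3 sequences were 70.7% and 79% G and C, with 30 and 47 CpG dinucleotides, against a median of 52.7% and 7 over all promoters. The Htr2c sequence was nearer to that median, at 56.3% with 5 CpG, and so was that of Adra2c, at 51.3% with 7 CpG. The RefSeq starts are not all those of the annotation used for gene positions. There the single Chrm4 exon starts downstream of the printed sequence, at base 91927249 of chromosome 2, and Hrh3, on the minus strand, starts within its own printed sequence, at base 180104488. The annotated Adra2c gene starts at base 35278319 of chromosome 5, while its promoter entry runs from base 35278316. Almost all of that entry thus lies within the annotated gene.

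Among the Gq-coupled receptors the direction was mixed. In zQ175 against WT 2 of the 9 tested members rose, in the Msh3-null pair 1 rose, and in the contrast over both pairs Chrm5 was called as lower.

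Htr2c encodes the serotonin 2C receptor, found on spiny neurons and, at a far higher level, in the epithelium of the choroid plexus. It was at 46.8, 57.3 and 77.8 CPM in WT and at 79.2, 84.2 and 125 CPM in zQ175 mice. Msh3-/- mice had 51.6, 59.3 and 74.9 CPM and zQ175:Msh3-/- mice 75.2, 89.8 and 127 CPM. Within each pair the highest mouse without the allele lay just below the lowest mouse with it. The log2 fold changes were 0.60 ± 0.12 (edgeR adjusted p = 0.000332) and 0.59 ± 0.12 (adjusted p = 0.000459). Exact permutation gave an unadjusted p = 0.000155 in each pair, which again only restates the lack of overlap. In males alone the values were 0.58 and 0.58 (adjusted p = 0.0733 and 0.0531) and were not called.

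Choroid plexus markers moved with Htr2c within the groups. In the 2 WT mice with a summed level of 6 such markers above 300 CPM, Htr2c was at 69.0 to 77.8 CPM, and in the other 6 it was at 46.8 to 61.5 CPM. The 3 Msh3-/- mice above that limit had 69.8 to 74.9 CPM and the other 5 had 51.6 to 60.1 CPM. The single zQ175 mouse above the limit had 125 CPM, while the other 7 ranged over 79.2 to 94.4 CPM. Of the zQ175:Msh3-/- mice the 2 above the limit had 100.3 to 127 CPM and the other 6 had 75.2 to 110.3 CPM, so only in this group did the ranges meet. The group medians of the marker sum were 138 CPM in WT against 78.7 CPM in zQ175 mice, and 176 CPM in Msh3-/- against 91.2 CPM in zQ175:Msh3-/- mice, lower with the allele. Without the 8 mice above the limit, Htr2c differed by 0.64 ± 0.08 (edgeR adjusted p = 1.22e-06) and 0.65 ± 0.09 (adjusted p = 5.75e-06). With all mice the values were 0.60 and 0.59. The fit without these mice was chosen after seeing the data, and the part of choroid plexus tissue in the Htr2c values was not tested.

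**Figure D4:**
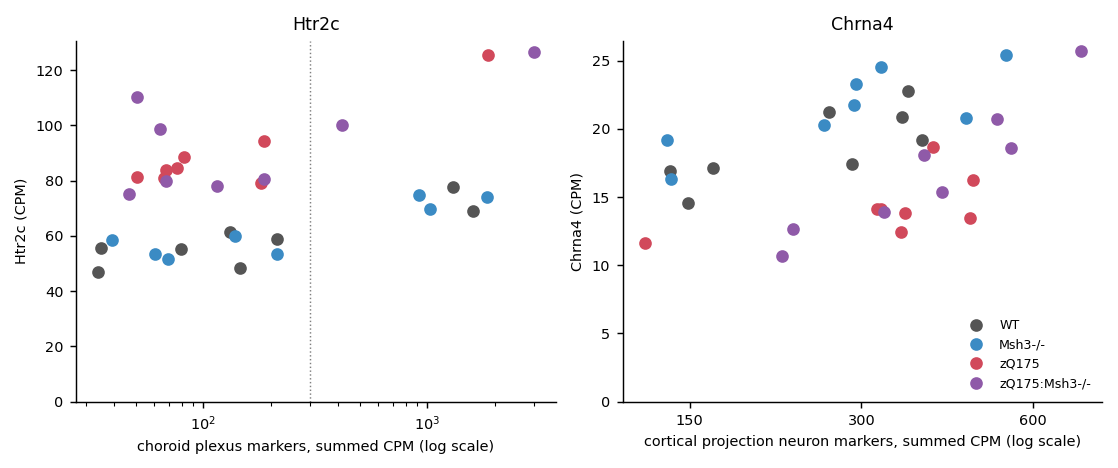
Left, Htr2c in CPM against the summed CPM of 6 choroid plexus markers (log axis, dotted line at 300 CPM). Right, Chrna4 in CPM against the summed CPM of 6 cortical projection neuron markers (log axis). Each point is a mouse, coloured by genotype. Htr2c is highest in the mice rich in choroid markers within WT and zQ175, and zQ175 mice lie above WT mice on both sides of the line.

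Hrh1, the gene of the Gq-coupled histamine H1 receptor, was called higher in zQ175 against WT. It was at 3.54, 5.41 and 6.34 CPM in WT and at 4.64, 7.01 and 8.63 CPM in zQ175 mice, with overlap. Msh3-/- mice had 4.03, 5.60 and 7.37 CPM and zQ175:Msh3-/- mice 4.35, 6.11 and 8.55 CPM, also overlapping. The changes were 0.34 ± 0.13 (edgeR adjusted p = 0.0448) and 0.11 ± 0.13 (adjusted p = 0.568), and the difference between them, −0.22 ± 0.18, had adjusted p = 0.999. The call was lost in 10 of the 32 fits that left out a mouse, with values of 0.27 to 0.40.

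Chrm5, the M5 muscarinic receptor gene, rests on few reads. Its counts were 2, 10 and 22 (lowest, median, highest) in WT and 2, 4.5 and 10 in zQ175 mice. In Msh3-/- mice they were 5, 9 and 15 and in zQ175:Msh3-/- mice 1, 4 and 11. All groups overlapped. The pairs gave −0.93 ± 0.39 and −0.97 ± 0.41 (edgeR adjusted p = 0.0751 and 0.0793), and both together gave −0.95 ± 0.28 (adjusted p = 0.00671). In females alone the contrast over both pairs did not call Chrm5 (−0.73). Its counts were higher in the groups without the allele, so it may have passed the filter on low counts mainly through them. Its call as lower is therefore not independent of that filter.

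Chrm1, the M1 receptor gene and the Gq-coupled member with the highest level, changed little beside Chrm4. WT mice had 139.6, 153 and 164 CPM and zQ175 mice 124, 138 and 149 CPM. The Msh3-/- values were 141, 154 and 168 CPM and the zQ175:Msh3-/- values 113, 134 and 147 CPM. The ranges overlapped in both pairs. The changes of −0.14 ± 0.05 (edgeR adjusted p = 0.0185) and −0.20 ± 0.05 (adjusted p = 0.000929) were under 1.2-fold. Within the summed TPM of the 5 muscarinic genes, Chrm4 made up 45.3% ± 2.95 in WT and 35.8% ± 1.79 in zQ175 mice (SD, n = 8). Chrm1 made up 45.2% ± 1.60 and 52.4% ± 1.36. With Msh3 absent the share of Chrm4 was 47.7% ± 2.87 without and 37.3% ± 3.53 with the zQ175 allele.

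The other Gq-coupled members were not called. Htr2a, the serotonin 2A receptor gene (8.96 TPM in WT), differed by 0.15 and 0.09 in the 2 pairs. Chrm3, the M3 receptor gene (10.8 TPM), differed by −0.05 and 0.03. The α1-adrenergic receptor genes had 0.38 and 0.30 for Adra1b (5.05 TPM), 0.38 and 0.24 for Adra1d (3.35 TPM), and −0.06 and 0.07 for Adra1a (3.91 TPM).

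Of the 6 tested Gs-coupled receptors, 1 fell in each pair. Htr4, the serotonin 4 receptor gene, had 3.78, 5.60 and 7.38 CPM in WT and 1.62, 2.91 and 4.70 CPM in zQ175 mice, with overlap. Msh3-/- mice had 4.40, 6.21 and 7.85 CPM and zQ175:Msh3-/- mice 1.83, 2.75 and 3.36 CPM, without overlap. Among the called members it had the largest fall in both pairs, −0.87 ± 0.16 (edgeR adjusted p = 8.74e-05) and −1.19 ± 0.17 (adjusted p = 8.65e-07). The difference between these values, −0.32 ± 0.23, had adjusted p = 0.999.

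The other Gs-coupled receptors were not called. Adrb1, the β1-adrenergic receptor gene (17.3 TPM in WT), differed by 0.06 and 0.02. The serotonin receptor gene Htr6 (7.80 TPM) differed by −0.08 and −0.12, and Htr7 (3.22 TPM) by −0.11 and −0.13. Hrh2, the histamine H2 receptor gene (5.41 TPM), differed by 0.08 and 0.16. Within the adrenergic family Adrb1 made up 17.7% ± 1.37 of the summed TPM in WT and 21.9% ± 1.42 in zQ175 mice, and Adra2c 62.0% ± 3.16 and 50.4% ± 4.37.

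Among the 9 tested ion channel subunits, 2 fell in zQ175 against WT, and 1 fell and 1 rose in the Msh3-null pair. Chrna7, the subunit of the homomeric α7 nicotinic receptor, had 10.3, 11.3 and 14.5 CPM in WT and 6.40, 8.19 and 9.99 CPM in zQ175 mice, without overlap. The values were 10.7, 11.8 and 13.1 CPM in Msh3-/- mice and 7.74, 9.26 and 10.9 CPM in zQ175:Msh3-/- mice, which overlapped. Chrna7 changed by −0.52 ± 0.08 (edgeR adjusted p = 8.38e-06) and −0.39 ± 0.08 (adjusted p = 0.000538). In females alone the second value was −0.33 (adjusted p = 0.135) and was not called.

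Chrna4 and Chrnb2 encode the α4 and β2 subunits that together form the main nicotinic receptor of the brain, and their values went in opposite directions. Chrna4 was at 14.5, 18.3 and 22.8 CPM in WT and at 11.7, 14.0 and 18.6 CPM in zQ175 mice. The Msh3-null groups had 16.3, 21.3 and 25.4 CPM without the allele and 10.7, 16.7 and 25.7 CPM with it. Both pairs overlapped. The log2 fold changes of Chrna4 were −0.39 ± 0.13 (edgeR adjusted p = 0.0275), called, and −0.34 ± 0.13 (adjusted p = 0.0637), not called. The first call was lost without any of 5 mice, WT male 1, male 4 and female 3 and zQ175 male 3 and male 4 (−0.45 to −0.35 over all 32 such fits).

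Chrnb2 lay within narrow ranges, 57.5, 59.9 and 62.5 CPM in WT and 64.8, 67.6 and 71.3 CPM in zQ175 mice, which did not overlap. Msh3-/- mice had 58.1, 61.8 and 65.3 CPM and zQ175:Msh3-/- mice 64.6, 67.4 and 74.3 CPM, which did. Its changes of 0.18 ± 0.03 (edgeR adjusted p = 2.28e-05) and 0.14 ± 0.03 (adjusted p = 0.000987) were below 1.2-fold and so were not called. Chrnb2 shares 1365 exon bases with Adar on the opposite strand, a gene with 3074 counts per mouse that differed by −0.08 in zQ175 against WT. Chrnb2 itself averaged 1092 counts. As for Htr1b, the use of strand is not given, so reads of this pair of genes cannot be told apart.

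Markers of cortical projection neurons moved with Chrna4 from mouse to mouse. The sum of 6 such markers was 139 to 384 CPM in WT against 125 to 471 CPM in zQ175 mice, and 137 to 538 CPM in Msh3-/- against 218 to 727 CPM in zQ175:Msh3-/- mice. Its medians were 276 CPM in WT and 355 CPM in zQ175 mice. In Msh3-/- and zQ175:Msh3-/- mice they were 292 and 401 CPM, so the median was higher with the allele in both pairs. The zQ175:Msh3-/- mouse with the highest sum had the highest Chrna4 of its group, 25.7 CPM. With the log2 of this sum added to the model, Chrna4 was lower by −0.54 ± 0.09 (edgeR adjusted p = 9.25e-06) and −0.53 ± 0.09 (adjusted p = 1.88e-05) on the log2 scale, called in both pairs. In that fit each doubling of the marker sum went with a log2 change of 0.49 in Chrm3 (adjusted p = 1.01e-11), 0.57 in Adra1b (adjusted p = 5.02e-08) and 0.34 in Chrna4 (adjusted p = 5.12e-06). For Adra2a it was 0.44 (adjusted p = 1.14e-05), for Adra1d 0.79 (adjusted p = 6.36e-05) and for Htr1a 0.50 (adjusted p = 0.000635). The zQ175 effect on Adra2a was then 0.09 ± 0.09 over both pairs (adjusted p = 0.427) and that on Hrh1 0.24 ± 0.12 in zQ175 against WT (adjusted p = 0.128), so neither was called. Chrm4, Hrh3, Adra2c, Htr1b, Adra2b, Htr4, Chrna7 and Htr2c were called in both pairs in this fit too. The fit was chosen after seeing the data, and its marker sum was not independent of genotype. The part of cortical tissue in the receptor values was not tested.

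Chrna5, the gene of the accessory α5 subunit, was called as higher in the Msh3-null pair, at few reads. Its counts were 0, 8.5 and 18 (lowest, median, highest) in Msh3-/- and 8, 15.5 and 29 in zQ175:Msh3-/- mice. WT mice had 6, 10 and 18 counts and zQ175 mice 7, 10.5 and 20. The groups overlapped in both pairs. Counts were highest in zQ175:Msh3-/- mice, so Chrna5 may have passed the filter on low counts mainly through them. The change was 0.93 ± 0.29 (edgeR adjusted p = 0.0174) with Msh3 absent and 0.13 ± 0.29 (adjusted p = 0.805) with Msh3 present, and the difference, 0.80 ± 0.42, had adjusted p = 0.999. The call was lost without zQ175:Msh3-/- female 2, in females alone, with the other groups left out of the model, and with the cortical markers in the model (0.71, adjusted p = 0.0563).

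The other tested subunits were not called. Htr3a, a subunit of the 5-HT3 channel (1.72 TPM in WT), differed by −0.08 and 0.38. Chrnb1, a subunit of the muscle receptor (1.05 TPM), differed by −0.03 and 0.34. Chrna3 (0.547 TPM) differed by −0.50 and −0.19, Chrna2 (0.372 TPM) by −0.16 and −0.66, and Chrnb4 (0.325 TPM) by 0.57 and −0.28.

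Summed by signalling, the Gi-coupled members were at 330.2 to 394 TPM in WT and 234 to 263 TPM in zQ175 mice, with means of 355 ± 23.2 and 246 ± 11.6 (SD, n = 8). With Msh3 absent the sums were 355 to 432 TPM without and 241 to 282 TPM with the allele, with means of 383 ± 28.4 and 263 ± 15.1. Neither pair overlapped. The Gq-coupled sum had means of 149.7 ± 7.28 TPM in WT and 165 ± 8.75 TPM in zQ175 mice, with overlap. The Gs-coupled sum was 38.4 ± 2.32 and 38.9 ± 2.35 TPM, and the channel sum 49.9 ± 2.31 and 48.5 ± 3.39 TPM, within the spread between mice. Such sums follow the members with the highest TPM and were not tested.

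**Figure D5:**
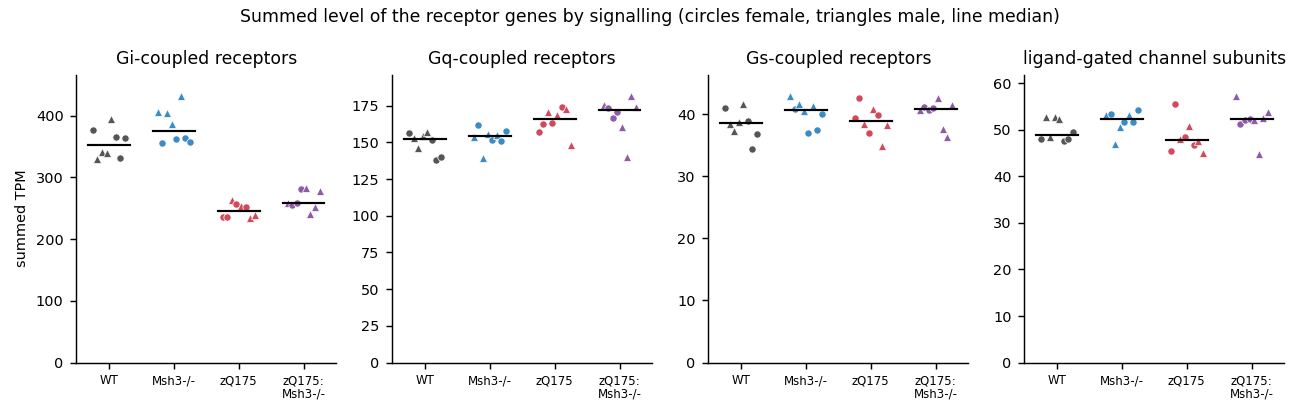
Summed TPM of the 13 Gi-coupled, 10 Gq-coupled, 7 Gs-coupled and 18 channel members in every mouse, by genotype. Circles are females, triangles males and lines medians, with vertical axes starting at 0. The Gi-coupled sum is at 234 to 282 TPM in mice with the zQ175 allele and at 330.2 to 432 TPM in mice without it.

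By transmitter, the summed TPM of the serotonin receptor genes was 113 ± 5.99 in WT and 116 ± 5.96 in zQ175 mice, while its make-up differed. Htr1b made up 32.2% ± 4.201 of it in WT and 20.7% ± 3.12 in zQ175 mice, and Htr2c 25.5% ± 3.62 and 39.3% ± 5.02. With Msh3 absent the shares of Htr1b were 32.1% ± 3.54 and 19.5% ± 2.18, and those of Htr2c 25.5% ± 3.57 and 39.3% ± 4.96. Histamine receptor genes summed to 150.3 ± 12.2 TPM in WT and 105 ± 6.28 TPM in zQ175 mice, with Hrh3 at 93.3% ± 0.991 and 88.7% ± 0.943 of the sum.

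Markers of several cell types moved in the same comparisons. The counts of markers that fell stand beside 6.89% of all genes in zQ175 against WT and 5.96% in the Msh3-null pair. The summed level of 6 direct pathway markers was 603 to 699.8 CPM in WT and 446 to 561 CPM in zQ175 mice, and 3 of the 6 fell. For 5 indirect pathway markers the sums were 1801 to 2177 and 818 to 1069 CPM, and 4 of the 5 fell. Gpr52, also on that list, was not found in the count table. The 6 cholinergic interneuron markers summed to 146 to 196 CPM in WT and 125 to 152 CPM in zQ175 mice, and 2 of the 6 fell. In zQ175:Msh3-/- against Msh3-/- all 6 fell, with sums of 113 to 152 and 139.8 to 202 CPM. Markers of cells other than neurons also differed. The sum of 6 endothelial and mural markers was 248 to 275 CPM in WT and 187 to 246 CPM in zQ175 mice, without overlap. Of the 6, 1 fell. With Msh3 absent the sums were 218 to 272 CPM without and 205 to 233 CPM with the allele, which overlapped. That of 6 astrocyte markers had medians of 893 and 812 CPM with overlapping ranges, and none of the 6 passed the call. Microglia markers had medians of 275 CPM in WT and 255 CPM in zQ175 mice, and oligodendrocyte markers 9803 and 8984 CPM. For GABAergic interneuron markers they were 361 and 343 CPM. These ranges overlapped too. None of these lists holds a receptor examined here, none of their markers in the count table was at 0, and their part in the receptor results was not tested.

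Loss of Msh3 led to no called member. In zQ175:Msh3-/- against zQ175 and in Msh3-/- against WT, 0 of the 36 tested members were called by edgeR, and 0 by DESeq2 or limma. Among all genes tested 1 was called in each, Msh3 itself, or 0.00602% of those tested. At an unadjusted p under 0.05 there were 3 of the 36 members in the first comparison, beside 614 of all 16610 genes, with 0.13 ± 0.06 for Hrh3, 0.15 ± 0.07 for Htr1d and 0.58 ± 0.28 for Chrna5. There were 2 in the second, beside 846 of 16610 genes, with 0.14 ± 0.07 for Chrm4 and 0.15 ± 0.07 for Htr1d. The zQ175 and WT mice of these comparisons also serve in zQ175 against WT, so the values are not independent of those above. For the other 7 members called in both pairs, zQ175:Msh3-/- against zQ175 gave 0.17 ± 0.16 for Adra2b, 0.15 ± 0.08 for Chrna7, 0.09 ± 0.07 for Chrm4 and 0.06 ± 0.12 for Htr2c. The values were −0.11 ± 0.17 for Htr4, −0.06 ± 0.11 for Htr1b and −0.02 ± 0.06 for Adra2c. A p that misses the threshold does not show that the levels were equal.

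Whether the zQ175 effect differed with Msh3 was tested as an interaction. It called 0 of 36 members and 0% of all genes by edgeR, and DESeq2 also called 0 members. At an unadjusted p under 0.05 edgeR gave 0 members, beside 737 of all 16610 genes. The interaction of zQ175 with sex, taken over both Msh3 genotypes, also called 0 members and 0% of genes by edgeR and 0 members by DESeq2, with 4 of the 36 at an unadjusted p under 0.05 (Adra2c, Htr1d, Htr2a and Htr3a) beside 847 of all 16610 genes. The log2 differences in females and males were −0.51 and −0.70 for Adra2c, −0.12 and −0.32 for Htr1d, 0.33 and −0.11 for Htr2a and −0.16 and 0.35 for Htr3a, over 7 females and 9 males with the allele and 8 of each sex without it. The sign thus differed between the sexes for Htr2a and Htr3a. It was shared for the members called in both pairs, as for Htr1b (−0.58 and −0.80), Chrm4 (−0.80 and −0.74) and Htr2c (0.61 and 0.57).

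Genes that serve these receptors were examined as lists of synthesis enzymes, transporters and signalling partners, whose counts stand beside the 6.89% of all genes that fell in zQ175 against WT and the 5.96% in the Msh3-null pair. In zQ175 against WT 2 of the 6 acetylcholine genes fell, Chat (−0.27 ± 0.07, edgeR adjusted p = 0.00264), which makes acetylcholine, and Slc5a7 (−0.31 ± 0.06, adjusted p = 8.98e-05), the choline transporter gene. Both are also among the cholinergic interneuron markers above, so this is not a separate observation. Of 11 tested genes of monoamine synthesis, transport and breakdown 1 fell, Slc22a3 (−0.61 ± 0.09, adjusted p = 2.68e-06), which encodes a low-affinity monoamine transporter. Among 8 chaperones and modulators of nicotinic receptors, Lynx1 fell (−0.55 ± 0.06) and Ly6h rose (0.44 ± 0.08). Both encode small proteins that bind nicotinic receptors.

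Downstream of the receptors, 2 of the 11 genes of Gs and Golf α subunits and adenylyl cyclases fell in each pair. They were Adcy5 (−0.85 ± 0.05 and −0.79 ± 0.05), the main adenylyl cyclase gene of spiny neurons, and Gnal (−0.33 ± 0.05 and −0.28 ± 0.05), which encodes the Golf α subunit. Of 8 Gq effectors 2 fell in each pair, Plcb1 (−0.60 ± 0.04 and −0.43 ± 0.04) and Plcb2 (−0.37 ± 0.09 and −0.29 ± 0.09). Of the 5 Gi and Go α subunit genes edgeR called 0 in either pair, with 4 and 3 at an unadjusted p under 0.05, beside 6063 and 5803 of all 16610 genes. Calls by other tools were not counted for this list. Of 7 receptor kinases and arrestins 1 fell in each pair, Grk5 (−0.42 ± 0.06 and −0.28 ± 0.06). Further calls in the Msh3-null pair, named after their values were seen, were Slc18a3 (−0.42 ± 0.08) and Th (−0.43 ± 0.11) as lower and Grk4 (0.42 ± 0.13) as higher.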

How the data were processed

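The authors sequenced polyadenylated RNA of 32 striata as paired-end reads and deposited raw gene counts, together with a table named FPKM. Each column of that deposited table summed to 1000000, so it was used as TPM. The processing notes name GRCm38.p6. Aligner, counter, use of strand and annotation are not given in the sources used here. Symbols, positions and lengths came from GENCODE M21. Total counts ran from 12359347 to 25030335 per mouse.

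A single edgeR 4.0.16 model (R 4.3.3) held the 4 genotypes, with TMM factors, filterByExpr and robust quasi-likelihood tests, adjusted by Benjamini-Hochberg over 16610 genes. CPM were TMM-scaled. Exact permutation tests used log2 CPM with a prior count of 2 over 12870 arrangements. Alternatives were RLE factors, no filter, at least 10 counts in every mouse, DESeq2 1.42.0, sex or a replicate block as a term, only the groups compared, each sex alone, limma 3.58.1 on log2(TPM + 0.1) or log2(TPM + 1), a scale that understates changes of low genes, CPM per exon length, and leaving out each mouse. The scripts were tested on simulated data.

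The members and lists were chosen with earlier results of these data known. Members called in any comparison, Msh3 and the highest member of each family were described in full, with up to 4 called genes of each other list. No library was a copy of another (smallest chi-square over degrees of freedom within a group 4.26). The values of 1 tested member are not reported here. Promoters came from RefSeq on GRCm38.p6.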

Additional observations from a re-analysis of the deposited data

Results flagged for a closer look

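In 8 of the 144 sets of 8 mice, 1 for each tested member and genotype, a mouse lay far from the other 7. The measure is the gap to the nearest mouse divided by the whole range, both taken on log2 CPM, while the values printed below are plain CPM. It was compared with Dixon's 95% critical value for 8 samples, and chance flags about 1 in 20 sets, or 7.2 of 144. For Htr2c in zQ175 mice the highest mouse, male 3, stood at 125 CPM above 79.2 to 94.4 CPM in the others (gap 0.619), and it was the only zQ175 mouse with choroid plexus markers above 300 CPM. Male 4 of zQ175 was the lowest mouse for Htr1a (2.39 CPM, gap 0.530), Adra2a (4.49 CPM, gap 0.541) and Chrm3 (11.1 CPM, gap 0.679), and had the lowest sum of cortical projection neuron markers of all 32 mice, 125 CPM. Male 2 of Msh3-/- was the lowest for Adra2a at 3.50 CPM (gap 0.690), with a cortical marker sum of 139 CPM. The other sets were Htr1f in Msh3-/- (male 3 highest, 3.88 CPM, gap 0.663), Chrm4 in zQ175:Msh3-/- (male 2 highest, 39.5 CPM, gap 0.539) and Chrnb4 in Msh3-/- (female 4 highest, 1.48 CPM, gap 0.734). The part of the tissue markers in these values was not tested.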

How the results depend on the processing

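Over 14 alternatives, 13 for the contrast over both pairs and for the Msh3 interaction and 4 for the sex interaction, the number of members called stayed within 1.5 times that of the report, at 7 to 12 in zQ175 against WT, 7 to 10 in zQ175:Msh3-/- against Msh3-/-, 10 to 14 over both pairs and 7 to 10 in zQ175:Msh3-/- against WT, and at 0 for Msh3 loss and both interactions. DESeq2 called 10, 10, 13 and 10. Leaving out each mouse in turn gave 8 to 10, 8 to 11, 10 to 13 and 8 to 10 members, and 0 for the comparisons of Msh3 loss and the Msh3 interaction. The numbers in the labels did not pair the mice: deviations of same-numbered mice had a median correlation of −0.0137, and 8 of 45 pairs were above 0.1. With a replicate block 10, 10, 11 and 8 members were called in these comparisons and 0 in the others, and the block added the call of Chrna4 in the Msh3-null pair (−0.42). Counts over all genes moved by more than 1.5 times in males alone in zQ175 against WT (1180 for 1925), zQ175:Msh3-/- against WT (1244 for 1992) and Msh3-/- against WT (3 for 1), in females alone in the Msh3-null pair (1067 for 1768), and, without the mice rich in choroid markers, in the Msh3 interaction (1 for 0).

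Chrm4, Hrh3, Adra2c and Htr4 kept their call in both pairs under all 14 alternatives and in all 32 fits that left out a mouse. Chrna4 in zQ175 against WT was not called under 7 alternatives, nor without WT male 1, male 4 or female 3 or zQ175 male 3 or male 4 (−0.45 to −0.35). Hrh1 in that comparison was not called under 6, nor without WT female 1, 2, 3, 4 or male 4 or zQ175 female 2, 3, 4, male 1 or male 3. Over both pairs Adra2a was not called in 22 of 32 and Chrna5 in 15 of 32 fits that left out a mouse. Signs turned for uncalled values alone: Chrna5 in zQ175 against WT was −0.012 in males and −0.098 with cortical markers in the model, and Hrh1 in the Msh3-null pair was −0.00079 with those markers. The last 2 alternatives, without choroid-rich mice and with cortical markers, were chosen after seeing the data. By CPM per kilobase of exon 9 of the 10 members with the highest TPM stayed among the 10 highest. Depth limits Chrm5, Chrna5 and the 12 untested members.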
